A study of Rattus norvegicus with 10 samples.

Results

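The adipogenic transcription factors Pparg, Cebpa, Cebpb, Cebpd and Klf15 were followed array by array in rat mammary glands. Every probe set whose single gene symbol in the platform annotation was one of these names was taken, which gave 7 of the 15866 probe sets that are not controls. Cebpd had 3 probe sets, and Pparg (1369179_a_at), Cebpa (1369658_at), Cebpb (1387087_at) and Klf15 (1368249_at) had 1 each. The 5 genes are among 10411 named on the array. The arrays measured total RNA of whole mammary glands from female SD rats at postnatal day 21. In the soy group (5 arrays) the AIN-93G diet, a purified rodent diet, was based on soy protein isolate, and in the casein group (5 arrays) it was based on casein. Both exposures ran from gestation day 4 to weaning. The labels mention RNA pools and parallel targets from each pool, and name no animals, so p-values here reflect only how far these arrays scatter. A whole gland holds fat, epithelium, lymph node and vessels. Fewer cells of a type and less RNA per cell therefore cannot be told apart for any gene below.

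Adipocytes form from fibroblast-like precursors through a cascade of transcription factors. Cebpb and Cebpd, basic leucine zipper proteins, are switched on early by hormones such as glucocorticoids and by cAMP, and they then induce Pparg and Cebpa. Pparg, a nuclear receptor that binds DNA with a retinoid X receptor, and Cebpa maintain each other and drive the genes of the mature fat cell. Klf15, a zinc finger protein induced by glucocorticoids, also promotes Pparg expression and raises the glucose transporter gene Slc2a4. In the mammary gland the fat pad surrounds the growing ducts, and Cebpb is in addition known as a regulator of the epithelium in mice.

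The promoters of Pparg and Cebpa are shown because these genes correlated on deviations from the diet means, as described further on. Another reason is that Pparg is known to be transcribed from alternative starts. RefSeq windows of 300 bases in build GRCr8, from 250 before to 50 after a start, were found for 4 of the 5 genes, and Pparg had 2 of them. Capitals mark every match on either strand to 5 motifs (GGGTG is the CACCC box on the other strand). They were the C/EBP motif TTGCNNAA, the CACCC box bound by Krüppel-like factors, the cAMP response element TGACGTCA, the E-box CACGTG and a glucocorticoid response element. In the last, the half-sites GNACA and TGTNC lie 3 bases apart. No matches overlapped each other in these windows. The Pparg windows lie at chr4:150096808-150097107 and chr4:150154522-150154821 and the Cebpa window at chr1:96896334-96896633, all on the plus strand.
Pparg first start: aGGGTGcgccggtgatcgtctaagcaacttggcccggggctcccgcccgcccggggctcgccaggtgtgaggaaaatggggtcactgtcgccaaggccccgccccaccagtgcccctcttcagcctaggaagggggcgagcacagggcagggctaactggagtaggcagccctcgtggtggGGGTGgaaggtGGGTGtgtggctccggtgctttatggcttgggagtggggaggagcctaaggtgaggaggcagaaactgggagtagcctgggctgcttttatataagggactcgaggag
Pparg second start: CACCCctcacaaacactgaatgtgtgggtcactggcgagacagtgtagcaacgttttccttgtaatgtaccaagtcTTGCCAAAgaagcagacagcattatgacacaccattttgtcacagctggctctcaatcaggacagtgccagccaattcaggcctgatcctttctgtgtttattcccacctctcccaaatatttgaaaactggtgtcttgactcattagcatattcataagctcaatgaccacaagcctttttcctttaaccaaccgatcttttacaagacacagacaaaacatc
Cebpa start: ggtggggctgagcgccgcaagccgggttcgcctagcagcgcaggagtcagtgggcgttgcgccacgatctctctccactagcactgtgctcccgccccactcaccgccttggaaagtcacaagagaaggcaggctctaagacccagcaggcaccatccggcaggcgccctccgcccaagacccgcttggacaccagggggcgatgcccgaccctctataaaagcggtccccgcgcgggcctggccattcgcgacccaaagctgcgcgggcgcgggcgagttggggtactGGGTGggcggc
The second Pparg start held 1 match to the C/EBP motif, at TTGCCAAA, and 10.6% of all 33469 windows hold this motif. The first Pparg start held 3 CACCC boxes, and the second Pparg start and Cebpa held 1 each, with 54.9% of all windows holding at least 1. No window of these members matched the cAMP element (1.83% of all windows) or the glucocorticoid element (0.439%). An E-box was matched only in the Klf15 window, among the 5 windows of these genes, and in 6.42% of all windows. The base composition differed widely, with 64.7% G and C at the first Pparg start, 43.7% at the second and 68.7% at Cebpa, against a median of 51.7% over all windows. A match describes letters and shows neither binding nor use of that start.

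No probe set of the whole table passed between the diets. Of 9520 probe sets tested, 0 (0%) had an adjusted p under 0.05 in limma, while 433 (4.55%) had an unadjusted p under 0.05, and in 76 (0.798%) the soy and casein arrays did not overlap. Of the 7 probe sets of the adipogenic factors, 6 passed the filter on mean signal, at least 1 for every gene. None of the 6 had an adjusted p under 0.05, 1 of them (Cebpb) had an unadjusted p under 0.05, and none separated the diets without overlap. Some arrays stood apart in their tissue content. The mean log2 signal of 18 skeletal muscle markers was 11.62 (array 147), 12.45 (149) and 12.77 (157) in the soy group and 12.86 in casein array 6, while the remaining 6 arrays had 6.85 to 8.19. The mean of 14 lymph node and lymphocyte markers was low at 6.49 for soy 149 and 6.69 for casein 6, while the remaining 8 arrays had 9.27 to 10.04.

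**Figure D1:**
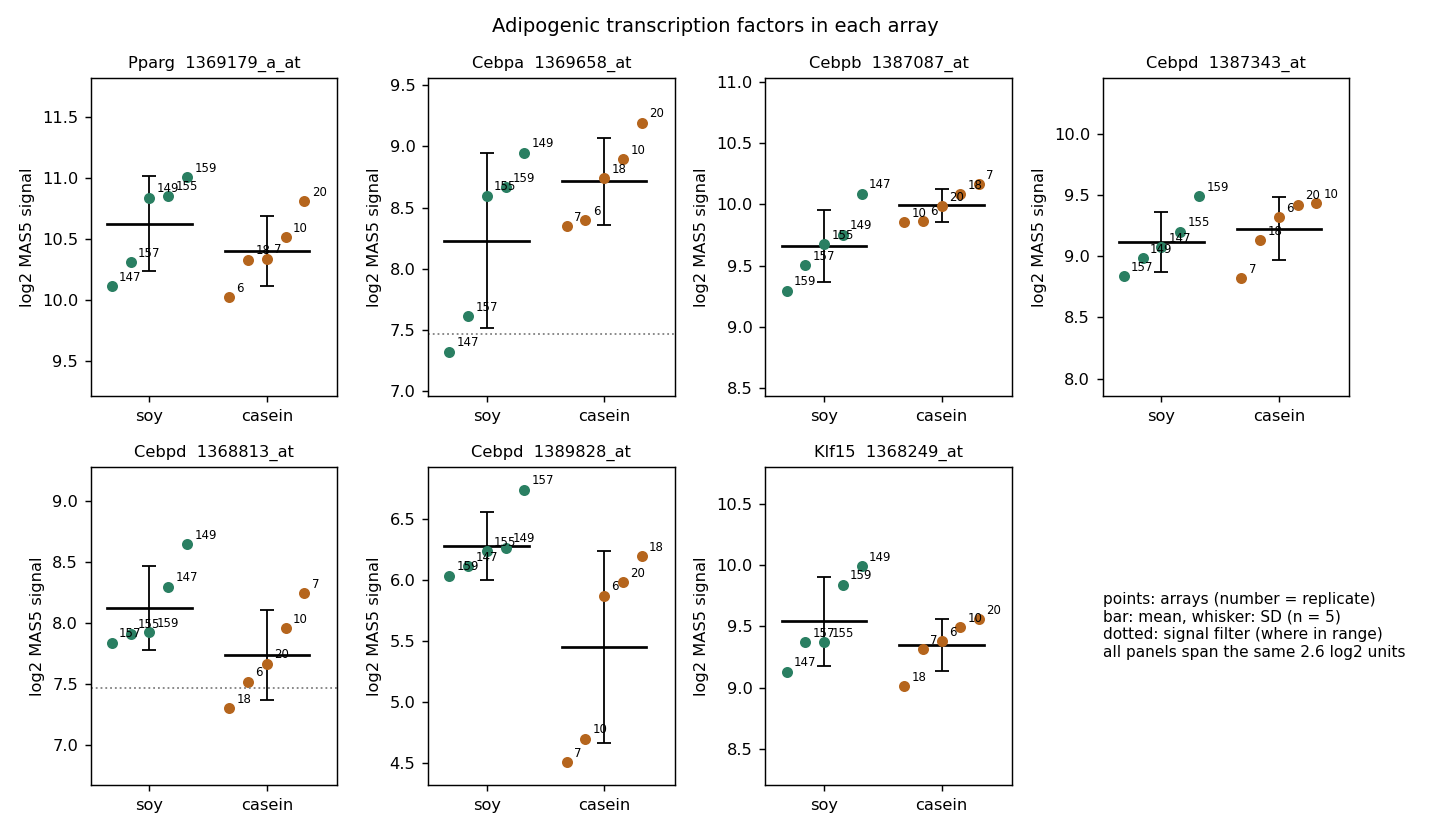
Log2 MAS5 signal of each of the 7 probe sets in the 5 soy and 5 casein arrays (points, numbered by replicate), with the mean (bar) and SD (whisker) of each diet and the signal filter of 7.47 (dotted) where it falls in range. Soy and casein arrays overlap in every panel, and Cebpa lies lowest in soy 147 and soy 157.

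Pparg did not differ between the diets beyond the spread of the arrays. Its log2 signal was 10.12 (soy 147), 10.84 (149), 10.86 (155), 10.31 (157) and 11.01 (159), against 10.03 (casein 6), 10.34 (7), 10.52 (10), 10.33 (18) and 10.81 (20). The 3 highest arrays were soy and the lowest was casein 6, but soy 147 and soy 157 lay among the lower casein arrays. The mean was 10.63 ± 0.39 in soy and 10.41 ± 0.29 in casein (SD, n = 5 each). The log2 difference had a 95% interval from -0.20 to 0.64, which is 0.873 to 1.56 times the casein level. Its estimate was 0.22 ± 0.19 (SE, unadjusted p = 0.27, adjusted p = 0.99 in limma). It moved with the arrays and covariates used. It was 0.43 without the 4 arrays with high muscle signal and 0.51 with the muscle and lymph node levels as covariates (unadjusted p = 0.00498, adjusted p = 0.678 in limma), and 0.073 without casein 6 and soy 149. With the actin 3′ to 5′ signal ratio, a measure of RNA quality that was 1.41 to 1.57 in soy and 1.22 to 1.55 in casein, as a covariate it was 0.086. The part of tissue content and RNA quality in the Pparg value was not tested further.

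Cebpa had the widest spread of the 6 probe sets that passed the filter. Its log2 signal was 7.32 (soy 147), 8.95 (149), 8.60 (155), 7.61 (157) and 8.66 (159), against 8.40 (casein 6), 8.35 (7), 8.90 (10), 8.74 (18) and 9.19 (20). Soy 147 and soy 157 stood below every casein array, and the other 3 soy arrays lay within the casein range. These low values were dim. Soy 147 lay under 7.47, the filter level applied to the mean of the arrays, and soy 157 lay little above it. The spread among the soy arrays, an SD of 0.72, was above that of 96.5% of the tested probe sets, and that among the casein arrays, 0.35, was above 84.1%. The mean was 8.23 in soy and 8.71 in casein. The log2 difference was -0.49 ± 0.31 (SE), with a 95% interval from -1.16 to 0.19 (unadjusted p = 0.14, adjusted p = 0.98 in limma). Without soy 147 the difference was -0.26. All of soy 147, soy 149, soy 157 and casein 6 had high muscle signal, and they held both the lowest Cebpa values and values of 8.95 and 8.40. With the muscle and lymph node levels as covariates the difference was -0.0021, and without the 4 muscle-rich arrays it was -0.16, but without casein 6 and soy 149 it was -0.75 (unadjusted p = 0.0326, adjusted p = 0.668 in limma). With the level of adipocyte markers as a covariate it was -0.43 (unadjusted p = 0.021, adjusted p = 0.92). The part of tissue content in the Cebpa value was not tested further.

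Relative to Pparg in the same array, the Cebpa signal was lower in most soy arrays. The log2 signal of Cebpa minus that of Pparg was -2.80 (soy 147), -1.89 (149), -2.26 (155), -2.70 (157) and -2.34 (159), against -1.63 (casein 6), -1.99 (7), -1.62 (10), -1.59 (18) and -1.62 (20). All soy arrays but soy 149 lay below the lowest casein array, casein 7, and 4 of the 5 casein arrays lay between -1.63 and -1.59. The mean was -2.40 ± 0.36 in soy and -1.69 ± 0.17 in casein (SD, n = 5 each), a difference of -0.71. It ran from -0.83 to -0.61 when 1 array was left out, was -0.75 after quantile normalization, and was -0.59 over the 6 arrays with low muscle signal, 2 soy and 4 casein. This quantity was picked after the values of both genes had been seen, so it carries no test. How often other pairs of probe sets split the diets this way was not counted. The offset between the probe sets has no meaning of its own, since each probe set has its own sensitivity.

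**Figure D2:**
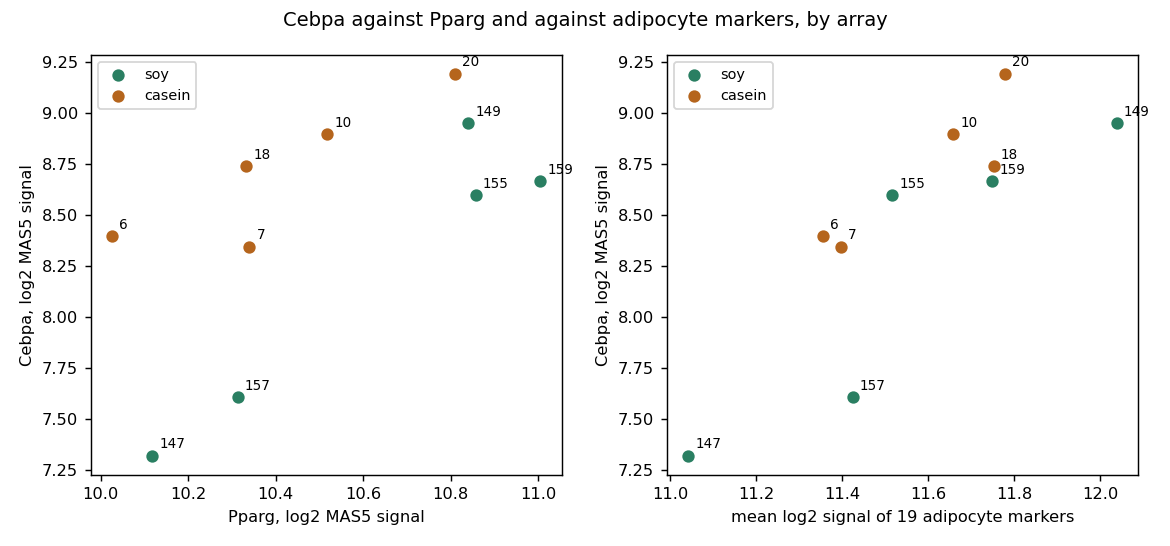
Log2 MAS5 signal of Cebpa against that of Pparg (left) and against the mean log2 signal of 19 adipocyte markers (right) in each array, soy and casein in different colours and numbered by replicate. Within a diet Cebpa rises with Pparg, and Cebpa minus Pparg is lower in 4 of the 5 soy arrays than in any casein array.

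Over all 10 arrays Pparg and Cebpa correlated with r = 0.63 and rho = 0.58 (permutation p = 0.049 and 0.088, adjusted over the 10 pairs of genes 0.24 and 0.22), and with r = 0.71 without soy 155 and soy 159, the arrays farthest from the median of Pparg. On deviations from the diet means r was 0.92, given as a description. Over the 6 arrays with low muscle signal r was 0.29. Pparg and Klf15 had r = 0.72 and rho = 0.62 (permutation p = 0.017 and 0.060, adjusted 0.17 and 0.22), r = 0.74 without the same 2 arrays, 0.68 on deviations from the diet means and 0.80 over the 6 arrays with low muscle signal. For Cebpb r was -0.53 with Pparg and -0.59 with Klf15 (adjusted permutation p = 0.24 for each), and -0.16 with Pparg without soy 155 and soy 159. Without soy 159 alone r was -0.30 for Cebpb with Pparg and -0.42 with Klf15. Over the 6 arrays with low muscle signal, soy 159 among them, Cebpb had r = -0.84 with Pparg and -0.76 with Klf15, given as a description. No pair of the 10 passed after adjustment.

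Cebpa followed the adipocyte marker level of the gland. Its correlation with the mean level of 19 adipocyte markers, a list without the 5 factors that includes Fabp4, Lpl, Lep and Slc2a4, was r = 0.84 and rho = 0.90 (permutation p = 0.00117 and 0.00089, adjusted over 30 relations of 5 genes with 6 cell type lists 0.0351 and 0.0267). It was r = 0.73 without soy 147 and soy 149, the arrays farthest from the median, 0.90 on deviations from the diet means, 0.78 over the 6 arrays with low muscle signal, and 0.71 to 0.88 when 1 array was left out. This was the only relation of the 30 that passed by Pearson r after adjustment. The share of all tested probe sets that followed the adipocyte markers this closely was not computed. The relation is therefore not shown to be particular to Cebpa. All of the 19 markers but Gpam, Sncg and Thrsp are also on the list, given further on, of adipocyte genes bound by PPARG and C/EBP factors. The marker level is therefore not a measure of fat content separate from listed targets of these factors. For the adipocyte markers r was 0.72 for Pparg, 0.66 for Klf15, 0.26 for Cebpd and -0.28 for Cebpb, with adjusted permutation p = 0.17, 0.17, 0.67 and 0.65. The summed signal of the adipocyte markers, 19 tested of 22 listed, ranged from 72931 to 131716 in soy and from 80332 to 110929 in casein. For Klf15 and the epithelial markers r was -0.66 (basal) and -0.65 (luminal), with rho of -0.83 and -0.82 that did not pass either (adjusted permutation p = 0.17 for each r and 0.062 for each rho). With endothelial and with fibroblast markers Klf15 had r = 0.67 (adjusted permutation p = 0.17 for each), which without soy 149 was 0.28 and 0.46. Cebpd had r = -0.63 with basal and -0.58 with luminal markers (adjusted permutation p = 0.19 and 0.23). Muscle and lymph node levels fall into separate clusters of arrays, so no correlation with them was computed.

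**Figure D3:**
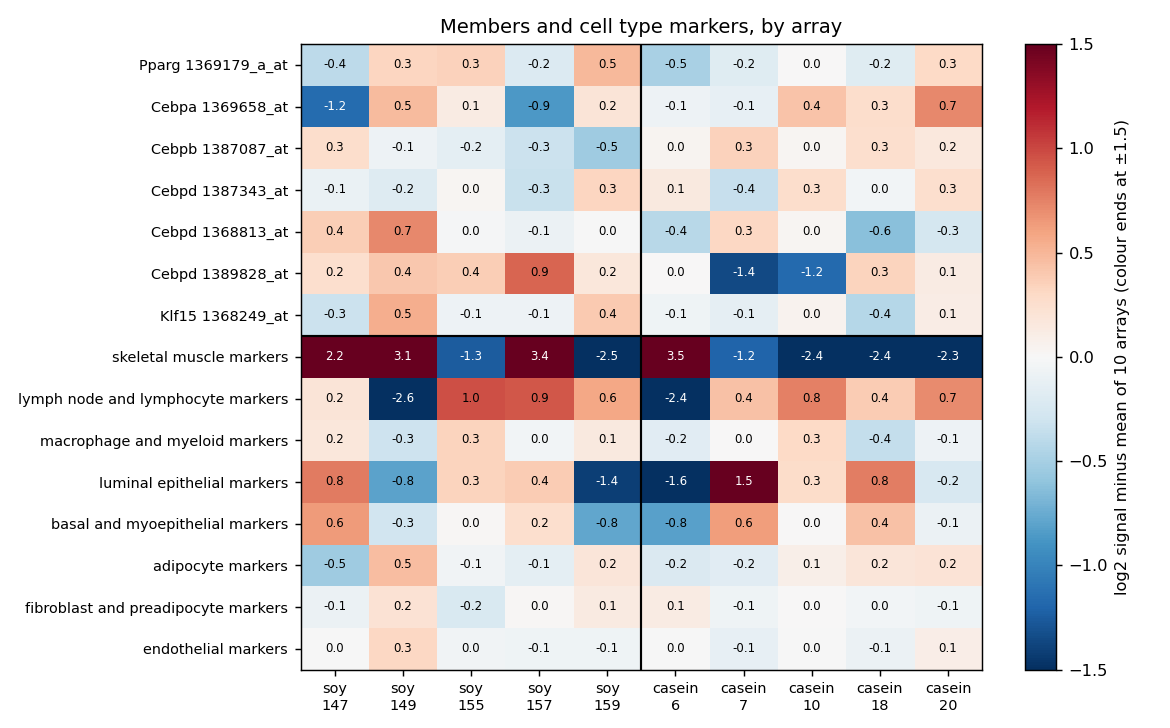
Log2 signal of the 7 probe sets (top) and mean log2 signal of 8 cell type marker lists (bottom) in each array, soy left of casein, as the deviation from the mean of the 10 arrays. Cebpa is lowest in soy 147, which also has the lowest adipocyte level, 11.04, and the muscle and lymph node rows show the arrays that stand apart.

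Cebpb, one of the early factors, had the smallest limma p of the 6 probe sets that passed the filter. Its log2 signal was 10.09 (soy 147), 9.75 (149), 9.68 (155), 9.50 (157) and 9.29 (159), against 9.87 (casein 6), 10.17 (7), 9.86 (10), 10.08 (18) and 9.99 (20). All soy arrays but soy 147 lay below the lowest casein array, while soy 147 was above 4 of the 5 casein arrays. The mean was 9.66 ± 0.30 in soy and 9.99 ± 0.14 in casein (SD, n = 5 each). The log2 difference was -0.33 ± 0.14 (SE), with a 95% interval from -0.63 to -0.024, which is 0.644 to 0.983 times the casein level. It did not pass over all probe sets (unadjusted p = 0.037, adjusted p = 0.98 in limma), and it ranked 298 by p among the 9520 probe sets. An exact two-sided permutation test of the diet labels gave p = 0.056, where the smallest possible is 0.0079. The difference was -0.44 without soy 147 and -0.24 without soy 159. Without the 4 muscle-rich arrays it was -0.54 (unadjusted p = 0.0043, adjusted p = 0.49 in limma). That fit compared only soy 155 and soy 159 with 4 casein arrays. It left out soy 147, the highest soy array for Cebpb, and kept soy 159, the lowest. The correlation of Cebpb with the epithelial markers did not pass, with r = 0.62 for basal and 0.58 for luminal markers (adjusted permutation p = 0.19 and 0.23). Without soy 159 r was 0.42 and 0.39, and without casein 6 it was 0.78 and 0.74. Over the 6 arrays with low muscle signal, soy 159 among them, r was 0.92 and 0.86, given as a description. The luminal marker level was 7.25 in soy 159, lowest for Cebpb, and 10.17 in casein 7, highest for Cebpb, but it was lowest of all, 7.08, in casein 6, where Cebpb was above 4 soy arrays. The part of epithelium in the Cebpb value was not tested.

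Cebpd, the other early factor, gave different answers at its 3 probe sets. At the brightest, 1387343_at, the log2 signal was 9.08 (soy 147), 8.98 (149), 9.20 (155), 8.84 (157) and 9.49 (159), against 9.32 (casein 6), 8.82 (7), 9.44 (10), 9.13 (18) and 9.42 (20). These ranges nearly coincide, and the log2 difference was -0.11 ± 0.15 (SE, 95% interval from -0.44 to 0.22, adjusted p = 0.99 in limma). At the second, 1368813_at, log2 signals were 8.30 (soy 147), 8.65 (149), 7.91 (155), 7.84 (157) and 7.92 (159), against 7.52 (casein 6), 8.25 (7), 7.96 (10), 7.30 (18) and 7.67 (20). All 5 soy arrays exceeded the casein mean of 7.74, but casein 7 and casein 10 lay above 3 soy arrays. The log2 difference there was 0.39 ± 0.21 (SE, 95% interval from -0.072 to 0.84, unadjusted p = 0.091, adjusted p = 0.98 in limma). It was 0.12 without the 4 muscle-rich arrays, 0.20 without casein 6 and soy 149, and 0.62 with the actin ratio as a covariate (unadjusted p = 0.0129, adjusted p = 0.986 in limma). The third, 1389828_at, was dim, with a mean log2 signal of 5.86 under the filter of 7.47. It ranged from 6.03 to 6.74 in soy and from 4.50 to 6.19 in casein, where casein 7 and casein 10 were at 4.50 and 4.70. Its log2 difference in a fit without the filter was 0.83 ± 0.35 (SE, unadjusted p = 0.0385, adjusted p = 0.86 in limma), and 0.59 without casein 7. The exact two-sided permutation test gave p = 0.032, below the 0.056 of Cebpb. For the other probe sets it gave 0.14 (1368813_at), 0.25 (Cebpa), 0.32 (Pparg), 0.37 (Klf15) and 0.52 (1387343_at).

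The sign of a Cebpd difference thus depended on the probe set. Between the brighter pair of probe sets the correlation over the arrays was r = -0.40 and rho = -0.30 (permutation p = 0.25 and 0.41, adjusted over 3 pairs 0.75 and 0.61). The mean of both had a log2 difference of 0.14 (adjusted p = 0.99 in limma). The brightest probe set also changed sign to 0.039 with the muscle and lymph node levels as covariates and to 0.14 without the 4 muscle-rich arrays, and was -0.050 without casein 6 and soy 149. The annotation gives the same RefSeq transcript for both brighter probe sets and an expressed sequence tag for the dim one, and does not say which part of it each one reads.

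The Klf15 signal differed between the diets by no more than the spread of the arrays. Its log2 signal was 9.13 (soy 147), 9.99 (149), 9.37 (155), 9.37 (157) and 9.84 (159), against 9.38 (casein 6), 9.31 (7), 9.49 (10), 9.01 (18) and 9.56 (20). Soy 149 and soy 159 were highest, and the other 3 soy arrays lay within the casein range. The log2 difference was 0.19 ± 0.17 (SE), with a 95% interval from -0.18 to 0.56 (unadjusted p = 0.29, adjusted p = 0.99 in limma). It was 0.077 without soy 149, 0.11 without casein 18, 0.12 without soy 159 and 0.29 without soy 147. Without casein 6 and soy 149 together it was 0.084, and with the muscle and lymph node levels as covariates it was 0.35 (unadjusted p = 0.0587 in limma).

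**Figure D4:**
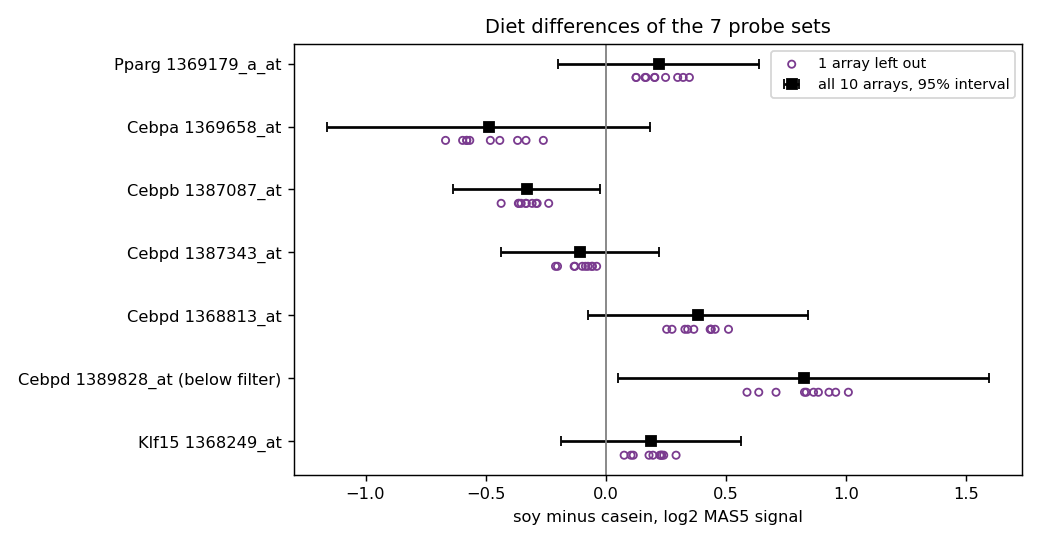
Log2 difference of soy minus casein for each probe set, with its 95% interval in limma over all 10 arrays (squares) and the value with 1 array left out (circles). The Pparg, Cebpa, Klf15 and brighter Cebpd intervals include 0, those of Cebpb and the dim Cebpd probe set do not, and no circle changes sign.

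The genes whose pattern over the 10 arrays was most like each factor were ranked by Pearson r among the other single-gene probe sets tested, 8147 to 8148 for each factor, as a description. For Pparg they were Srebf1, the sterol regulatory element binding factor that drives lipid synthesis genes (r = 0.94), Tmem120a (0.94) and Bcar3 (0.92). For Cebpa they were the cyclin-dependent kinase inhibitor Cdkn2c (0.91), L3hypdh (0.91) and the molybdopterin synthase subunit Mocs2 (0.91). For Cebpb they were Cand1, a regulator of cullin ubiquitin ligases (0.92), Rapgef5 (0.89) and the AMP deaminase Ampd3 (0.87). For Cebpd they were Commd3 (0.90), the lipid droplet protein Plin3 (0.86) and Tm2d2 (0.85). For Klf15 they were Abcd2, a peroxisomal fatty acid transporter (0.96), Palm (0.95) and Cdc42ep5 (0.93). No adjusted p of these genes was under 0.05 in limma.

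None of the other regulators of adipogenesis passed between the diets. Of 17 tested factors that promote it, 10 were at a positive and 7 at a negative log2 difference, with a median of 0.062, against -0.011 over all 7151 genes tested, of which 154 were higher and 155 lower at an unadjusted p under 0.05. The smallest p of the 17 was that of Klf9, a Krüppel-like factor induced by glucocorticoids, at 11.11 ± 0.20 in soy and 10.63 ± 0.23 in casein (SD, n = 5 each). Its log2 difference was 0.48 ± 0.13 (SE, adjusted p = 0.98 in limma), and the ranges, 10.91 to 11.43 in soy and 10.38 to 10.92 in casein, met at their ends. Nr1h3, the liver X receptor alpha, was at 0.18, Nr3c1, the glucocorticoid receptor, at 0.12 and the clock factor Bmal1 at 0.17. Of 12 receptor partners and coregulators, 9 were positive and 3 negative, with a median of 0.025. The count of negative ones was 8 without casein 6, with a median of -0.024, and 10 without casein 6 and soy 149, with a median of -0.026. Among them Rxrb, a retinoid X receptor, was at 0.34 ± 0.12 (SE, adjusted p = 0.98 in limma), Tle3 at 0.18, Rxrg at 0.17 and the coactivator Ncoa4 at -0.18. Of 15 factors that restrain adipogenesis, 6 were positive and 9 negative, with a median of -0.013. Among these Ctnnb1, beta-catenin of the Wnt pathway, was at 0.27, Id2 at -0.42, Id3 at -0.12 and the cell cycle repressor E2f4 at -0.14.

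Genes downstream and upstream of the factors showed no call either. Of 28 adipocyte genes bound by PPARG and C/EBP factors, 17 were positive and 11 negative, with a median of 0.036 that turned to -0.064 under quantile normalization and to -0.057 without soy 149. The members with the smallest p were enzymes of lipid synthesis: Me1 at -0.99, Fasn at -0.63 and Scd at -0.45, while Pck1, of glyceroneogenesis, was at 0.36. Fabp4 and Lpl were at 0.18 and 0.12. Of 17 genes on a glucocorticoid list, 13 were positive and 4 negative, with a median of 0.24, and 4 of the positive ones had an unadjusted p under 0.05. Over all 7151 genes 3378 were positive and 3773 negative, and 154 of the positive ones had such a p. The median of the list was 0.12 without casein 6, and without casein 6 and soy 149 it was 0.094 with 7 negative. The 4 genes with an unadjusted p under 0.05 were Hsd11b1, which regenerates active glucocorticoid (0.81), Klf9, the receptor chaperone Fkbp5 (0.58) and the pyruvate dehydrogenase kinase Pdk4 (0.44). A list of amino acid breakdown genes tied to KLF15, which also holds the glucose transporter gene Slc2a4, had 9 tested genes. Of these, 7 were at a negative log2 difference, Slc2a4 at -0.14 among them, and 2 at a positive one. Of the 9, 1 had an unadjusted p under 0.05. Their median was -0.16, or -0.060 without the 4 muscle-rich arrays and -0.33 with the actin ratio as a covariate. The smallest p was that of Bckdhb, a subunit of branched-chain ketoacid dehydrogenase, at -0.35. Next came Ivd at -0.27, Bckdha at -0.27 and Hibadh at -0.16. Of 19 immediate early and acute response genes, 10 were positive and 9 negative, with a median of 0.010 that turned to -0.011 under median centring, with Stat3 at -0.38, Junb at 0.38, Nfil3 at 0.22 and Csrnp1 at 0.28. In each of these lists 0 genes had an adjusted p under 0.05 in limma, as over all probe sets.

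**Figure D5:**
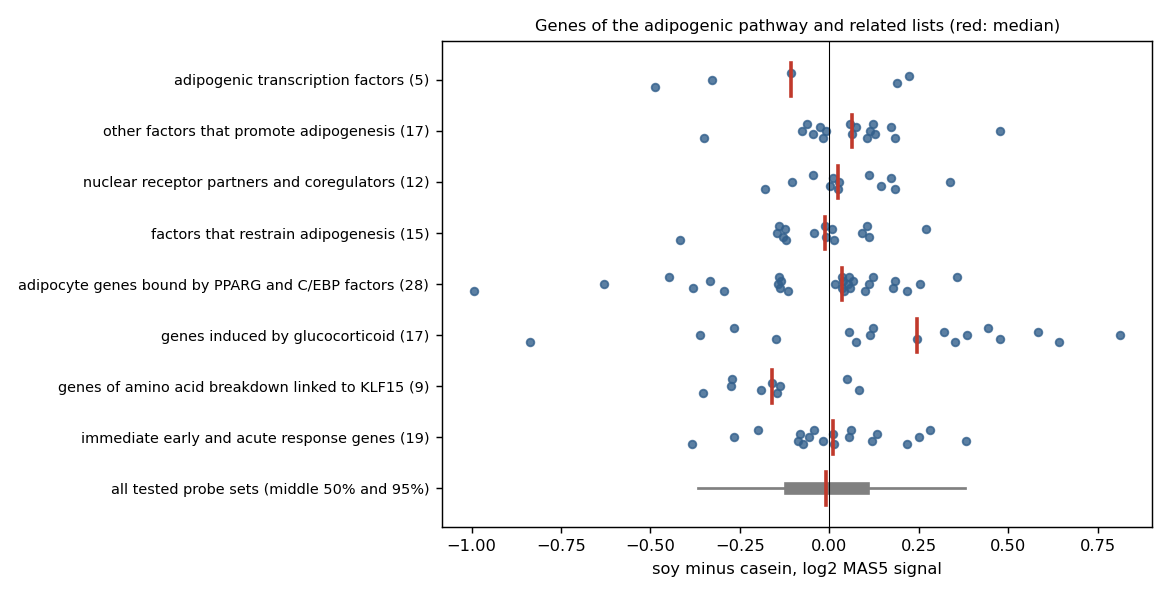
Log2 difference of soy minus casein for the tested genes of 8 lists (points, 1 probe set a gene, number tested in brackets), with the median in red, and for all tested probe sets the median, the middle 50% (thick) and the middle 95% (thin). The list medians lie between -0.16 and 0.24, and that of all tested probe sets at -0.010.

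The marker lists of other cell types gave medians of 2.24 for skeletal muscle (18 genes tested), 0.063 for lymph node and lymphocytes (14), 0.16 for macrophages (13), -0.14 for luminal epithelium (9), -0.11 for basal epithelium (13), 0.034 for adipocytes (19), 0.040 for fibroblasts and preadipocytes (18) and 0.081 for endothelium (11). None held a gene with an adjusted p under 0.05 in limma. By smallest p these lists were led by the myosin genes Myh1 at -0.26 and Myl11 at 4.25, Cxcr5 at 0.25 and Cd37 at -0.40, Lgals3 at 0.34 and Cybb at 0.17, Epcam at -1.17 and Krt8 at -0.75. In the remaining lists they were Itgb4 at 0.42 and Egfr at -0.45, Gpam at -0.61 and Pck1, the collagen gene Col1a1 at 0.33 and Lum at -0.37, and Kdr at -0.27 and Cldn5 at 0.29. The Myh1 probe set ranged only from 10.59 to 11.18 over the arrays, while Myl11 ranged from 3.15 to 14.39. Myh1 thus did not show the wide swing of Myl11 between arrays.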

How the data were processed

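Per the labels, total RNA of whole glands was turned into biotin-labelled cRNA and hybridised to 1-colour arrays, 1 per sample. The deposited intensity is the linear MAS5 signal of the authors, per the submitters' processing notes, with version and settings not given in the sources used here. Its 2% trimmed mean was 500.1 on every array, so the deposited scaling was kept.

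Signals under 1 were set to 1 and log2 was taken. Of 15923 probe sets, 57 controls were left out. The annotation named 1 gene for 12783 of the others, several for 312 and none for 2771. Testing was limited to probe sets with a mean log2 signal at or above the 40th percentile, 7.47, a signal of 177, which left 9520 for 7151 named genes. limma 3.58.1 in R 4.3.3 (lmFit, eBayes with an intensity trend, two-sided) compared soy with casein, with Benjamini-Hochberg adjustment over all tested probe sets. The brightest tested probe set stood for a gene in lists, and 12748 probe sets with 1 gene were found in the gene table. Correlations used 100000 permutations. Promoter windows are from RefSeq. The fit was tested on simulated data. The alternatives were other scalings, filters, offsets and variance models, array weights, covariates, the exact permutation test (252 assignments), means of probe sets, and leaving out arrays. Leaving out arrays for correlations and for the dim Cebpd probe set, and Cebpa minus Pparg, were added after seeing the data.

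The named genes are the 5 factors, up to 4 genes of smallest p from each of the other 7 lists and 2 from each of 8 cell type lists, the 3 most alike genes of each factor, and a few adipocyte markers named after their values were seen. The factors, lists and array groups were chosen with earlier results of these data known. Precision is limited by the number of arrays. The standard error of a difference had a median of 0.144.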

Additional observations from a re-analysis of the deposited data

Results flagged for a closer look

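No value of the 5 factors stood apart from the rest of its diet by the test for single outlying samples (Dixon's ratio of the gap to the range, above 0.71 for 5 samples), which was applied to 30 groups of arrays, where chance alone flags about 1 in 20. Of the cell type levels set beside the factors, 4 did. The mean log2 level of lymph node and lymphocyte markers was lowest in soy 149, at 6.495 against 9.27 in the next soy array, and in casein 6, at 6.686 against 9.457 in the next casein array. The level of skeletal muscle markers in casein 6 was 12.86, against 8.19 in the next casein array. The level of endothelial markers in soy 149 was 9.921, against 9.597 in the next soy array. Soy 149 had the highest Cebpa, Klf15 and 1368813_at Cebpd signals of the soy arrays, and casein 6 the lowest Pparg signal of all arrays.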

How the results depend on the processing

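The fit was repeated under 23 settings. The filter at the 60th percentile left out Cebpa and the second Cebpd probe set, and the dim Cebpd probe set was refitted only without 1 array in turn, with no filter. No refit of a factor had an adjusted p under 0.05. The sign of Pparg, Cebpa, Cebpb, Klf15 and the second and the dim Cebpd probe sets held in the refits made of each. That of the brightest Cebpd probe set turned with muscle and lymph node levels as covariates, to 0.03918, and without the 4 muscle-rich arrays, to 0.1439, and the mean of both brighter probe sets was 0.1389. Leaving out 1 array gave 0.13 to 0.35 for Pparg, -0.67 to -0.26 for Cebpa, -0.44 to -0.24 for Cebpb, -0.21 to -0.037 and 0.25 to 0.51 for the brighter Cebpd probe sets, 0.59 to 1.01 for the dim one and 0.077 to 0.29 for Klf15. The count of probe sets with an adjusted p under 0.05 was 0 in all 23. That with an unadjusted p under 0.05 was 843 with no filter, 280 at the 60th percentile, 712 with array weights, 838 without the 4 muscle-rich arrays, 686 without casein 6 and soy 149, 272 without casein 18 and 704 without casein 6. List medians ran from -0.0012 to 0.14 for other promoting factors, -0.12 to 0.00031 for restraining factors, -0.13 to 0.15 for adipocyte genes bound by the factors and -0.096 to 0.053 for immediate early genes. Median centring gave 58.8% negative differences, against 52.7%. No paired analysis was possible because the diets share no replicate numbers. Dim signals were not set against background, which limits the third Cebpd probe set most.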
